A study of Homo sapiens with 12 samples.

Results

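The set described here holds 10 human genes of the WNT and beta-catenin pathway, SP5, DKK1, AXIN2, LGR5, NKD1, TCF7, LEF1, RNF43, ZNRF3 and CTNNB1, out of 20030 genes listed in the deposited table. They were picked by name, with their levels in these libraries known, as pathway genes that the cells transcribe, so those levels are given as a description. All 10 reached the minimum level set for testing (at least 1 FPKM in at least 3 libraries), as did 10823 genes in all. FPKM counts sequenced fragments scaled by transcript length and by library size. LEF1 reached that minimum only through libraries made without FAC.

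The RNA came from HepG2, an established human hepatoma line. It was sequenced in 12 libraries in 4 groups of 3. Cells received the vehicle DMSO, 8HQ alone, FAC alone, or both agents (8HQ_FAC). The labels give 1 concentration, 10 µM, and 1 duration, 6 h, for all groups, and do not say to which agent the concentration refers. The abbreviations are not spelled out there; 8HQ commonly stands for the metal chelator 8-hydroxyquinoline and FAC for the iron salt ferric ammonium citrate. Nothing in the labels states that the libraries of a group are separate cultures, so the p-values below measure a spread that may be technical.

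In the canonical pathway, WNT ligands bind Frizzled receptors and LRP co-receptors, and a cytoplasmic destruction complex built on axin and APC then stops marking beta-catenin for degradation. Beta-catenin enters the nucleus and, with TCF/LEF proteins, activates target genes, several of which encode inhibitors of the pathway itself. In the liver the pathway is known for setting the gene programme of perivenous hepatocytes. HepG2 cells are known to carry a CTNNB1 allele whose product lacks the residues that mark beta-catenin for destruction, so the pathway is active in them without added ligand.

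TCF/LEF proteins bind DNA at a motif whose core is CTTTGA, with CTTTGAT as a fuller form. The core was searched on both strands in the 250 bases before the start of each gene in the RefSeq promoter table (GRCh38.p14). It was present in 11.2% of 35116 promoters, and CTTTGAT, which contains it, in 2.26%. The table held 8 promoters of 6 of the genes, namely SP5, DKK1, TCF7, LEF1, RNF43 and CTNNB1, and not AXIN2, LGR5, NKD1 or ZNRF3. SP5 and DKK1, which had the lowest ratios of 8HQ_FAC to DMSO in the set, held the core, and SP5 also held CTTTGAT. Their upstream sequences are shown with that of CTNNB1, which had the highest level and held no match. Capitals mark each match, written TCAAAG or ATCAAAG where it lies on the other strand.
SP5 (chr2:170715087-170715336, plus strand): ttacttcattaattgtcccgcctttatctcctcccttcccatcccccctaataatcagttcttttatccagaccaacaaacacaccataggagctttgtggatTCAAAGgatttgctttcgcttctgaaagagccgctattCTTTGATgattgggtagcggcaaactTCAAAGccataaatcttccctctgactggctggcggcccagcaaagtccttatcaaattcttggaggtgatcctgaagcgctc
DKK1 (chr10:52314031-52314280, plus strand): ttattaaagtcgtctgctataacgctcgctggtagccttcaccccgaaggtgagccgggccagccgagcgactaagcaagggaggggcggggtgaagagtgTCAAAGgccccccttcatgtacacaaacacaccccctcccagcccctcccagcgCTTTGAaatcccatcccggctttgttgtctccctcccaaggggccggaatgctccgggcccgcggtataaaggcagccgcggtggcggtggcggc
CTNNB1 (chr3:41199255-41199504, plus strand): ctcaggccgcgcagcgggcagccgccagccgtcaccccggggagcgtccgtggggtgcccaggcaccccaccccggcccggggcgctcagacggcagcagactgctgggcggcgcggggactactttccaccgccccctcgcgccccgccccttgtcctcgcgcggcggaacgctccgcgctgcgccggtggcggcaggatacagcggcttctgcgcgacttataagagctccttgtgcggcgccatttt
The SP5 sequence held 3 matches, beginning 147, 109 and 83 bases before the start, of which the one at 109 is CTTTGAT. The DKK1 sequence held 2, at 149 and 95 bases. The promoters of RNF43, LEF1 and TCF7 held no match either, and RNF43 was at 39.9% of DMSO with 8HQ_FAC. Whether a match goes with the size of the change was not tested. A match of letters is not a measured binding site.

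Reads were recovered from the spacing of the FPKM values and summed to between 13153409 and 17282618 per library. All 10 hepatocyte and hepatoma markers were above 0 in every library, with a summed level of 12959 to 20932 FPKM. Of 10 leukocyte and Kupffer cell markers, a DMSO or 8HQ library held 8 to 10 above 0, and a library made with FAC held 2 to 5. CD3E, CD163, TYROBP and HLA-DRA were at 0 in all 6 libraries made with FAC. The summed level of that list was 1051 to 1260 FPKM in the DMSO, 8HQ and FAC groups and 1967 to 1988 FPKM with 8HQ_FAC, most of it LYZ. Of 4 red cell markers the summed level was 0.770 to 41.3 FPKM without FAC and 0.0949 to 3.31 FPKM with it, and HBB was at 0 in all libraries made with FAC. Over all libraries endothelial markers summed to 0.414 to 1.06 FPKM. Stellate cell and fibroblast markers summed to 34.97 to 54.42 FPKM, most of it ACTA2. COL1A1, COL1A2, COL3A1 and DCN were at most 0.262 FPKM in any library. Cholangiocyte markers summed to 711 to 944 FPKM, most of it SPP1. KRT19 was at 71.2 to 151 FPKM and EPCAM at 79.2 to 165 FPKM, both highest with 8HQ_FAC. KRT7 was at most 0.376 FPKM.

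With DMSO, CTNNB1 had the highest level per length of the set and LEF1 the lowest. The order by mean FPKM was CTNNB1, SP5, LGR5, DKK1, AXIN2, NKD1, RNF43, ZNRF3, TCF7 and LEF1. The libraries of LGR5 and DKK1 overlapped, as did those of AXIN2 and NKD1, and every other neighbouring pair was separate. With 8HQ_FAC the order was CTNNB1, NKD1, AXIN2, LGR5, SP5, DKK1, RNF43, ZNRF3, TCF7 and LEF1, with overlap between AXIN2 and LGR5 only. SP5 thus moved from rank 2 to rank 5 and NKD1 from rank 6 to rank 2.

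**Figure D1:**
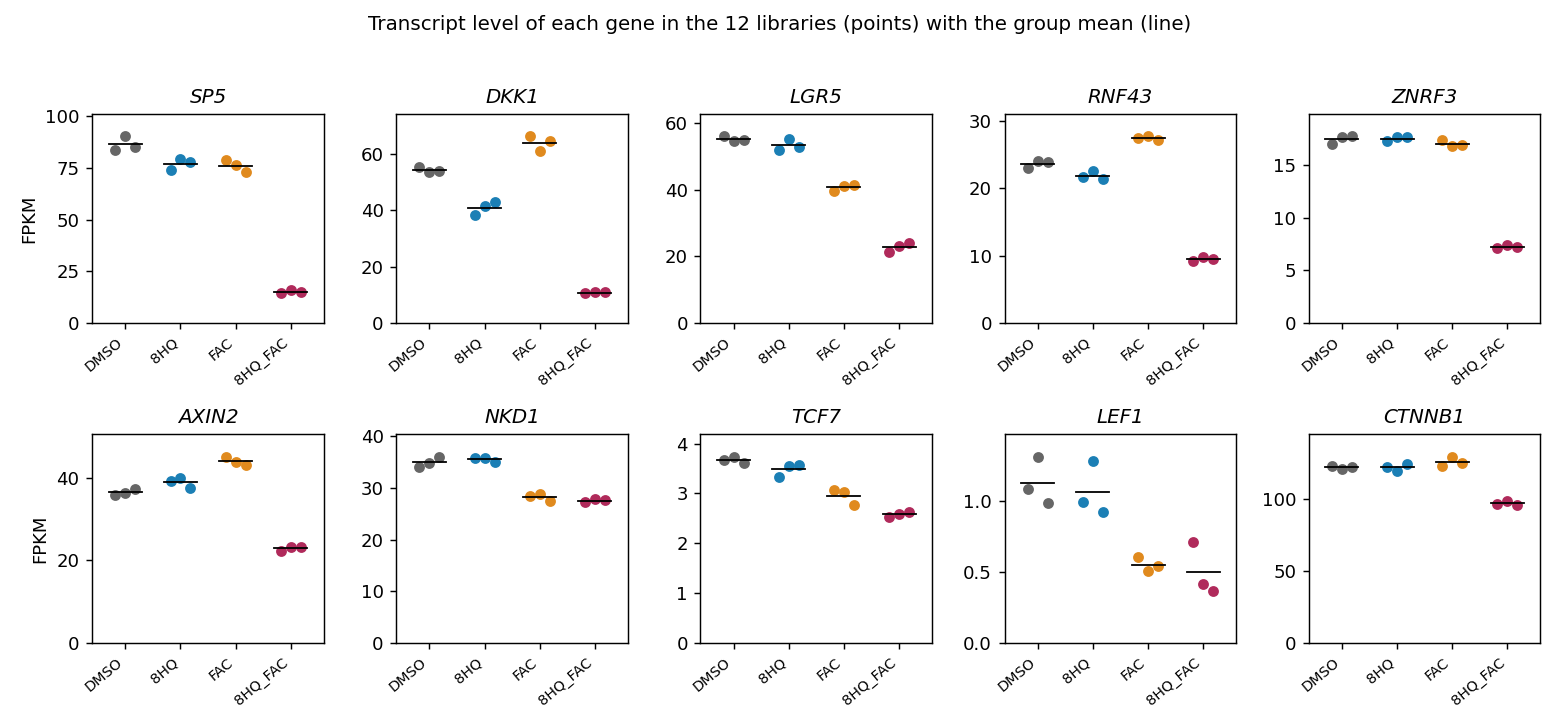
Transcript level (FPKM, linear axes starting at 0) of each gene in the 12 libraries; points are libraries and lines are group means of 3. SP5 and DKK1 lie between 10.5 and 15.8 FPKM in the 8HQ_FAC libraries and above 38 FPKM in all others.

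The combination of 8HQ and FAC was first compared with DMSO. SP5 was lowered to 17.3% and DKK1 to 19.8% of DMSO, LGR5, RNF43 and ZNRF3 to between 39.9% and 41.4%, and AXIN2 to 63.0%. NKD1, TCF7, LEF1 and CTNNB1 had smaller differences on the log2 scale, and the direction of NKD1, TCF7 and CTNNB1 depended on the scaling. All 10 genes were called lower by limma, where a call is a Benjamini-Hochberg adjusted p below 0.05, and 5 of them by at least 2-fold. LEF1 was tested only because it is high without FAC, which favoured its call, and with LEF1 set aside the count was 9 of 9. Of all tested genes 56.7% were called lower and 10.1% were called lower by at least 2-fold, while 27.5% were called higher. The median log2 change of FPKM + 1 was -0.91 over the 10 genes and -0.23 over all tested genes. In bulk RNA, fewer cells of a type and less RNA per cell cannot be told apart.

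DKK1 encodes a secreted inhibitor that binds the LRP co-receptors. Its DMSO libraries held 55.4, 53.7 and 54.1 FPKM, its 8HQ libraries 38.3, 41.7 and 43.0, its FAC libraries 66.3, 61.2 and 64.6, and its 8HQ_FAC libraries 10.5, 10.8 and 11.02. No groups overlapped; FAC was highest, then DMSO, then 8HQ, with 8HQ_FAC far below. The mean with 8HQ_FAC was 10.8 ± 0.278 FPKM against 54.4 ± 0.877 with DMSO (SD, n = 3 each), and DKK1 fell by 2.24 on the log2 scale (SE 0.0422; limma adjusted p = 2.77e-15). The gene ranked as the 12th lowest change of all those tested.

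LGR5, RNF43 and ZNRF3 form the R-spondin axis: LGR5 is a receptor for R-spondins, and RNF43 and ZNRF3 are membrane ubiquitin ligases that remove Frizzled receptors from the surface. LGR5 held 55.9, 54.7 and 54.8 FPKM with DMSO, 51.8, 55.0 and 52.8 with 8HQ, 39.4, 41.1 and 41.3 with FAC, and 21.1, 23.1 and 23.8 with 8HQ_FAC. DMSO and 8HQ overlapped, FAC was below both, and 8HQ_FAC was below FAC. LGR5 fell by 1.25 on the log2 scale with 8HQ_FAC against DMSO (SE 0.0403; adjusted p = 3.16e-13).

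RNF43 held 23.0, 24.0 and 23.9 FPKM with DMSO, 21.7, 22.6 and 21.3 with 8HQ, 27.5, 27.7 and 27.1 with FAC, and 9.11, 9.79 and 9.43 with 8HQ_FAC. Its 4 groups did not overlap, with FAC highest and 8HQ_FAC lowest. RNF43 fell by 1.24 with 8HQ_FAC against DMSO (SE 0.0366; adjusted p = 1.27e-13).

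ZNRF3 held 17.1, 17.7 and 17.7 FPKM with DMSO, 17.3, 17.6 and 17.7 with 8HQ, 17.4, 16.9 and 16.9 with FAC, and 7.12, 7.41 and 7.20 with 8HQ_FAC. The first 3 groups overlapped one another, and only 8HQ_FAC stood apart. ZNRF3 fell by 1.17 on the log2 scale against DMSO (SE 0.035; adjusted p = 1.48e-13), which left it at 41.4% of DMSO, next to 39.9% for RNF43 and 41.1% for LGR5.

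AXIN2 encodes a scaffold of the destruction complex and is a widely used readout of beta-catenin activity. Its libraries held 35.8, 36.4 and 37.2 FPKM with DMSO, 39.2, 39.8 and 37.6 with 8HQ, 45.1, 43.8 and 43.2 with FAC, and 22.3, 23.3 and 23.3 with 8HQ_FAC. No groups overlapped; both single agents lay above DMSO and the combination below it, although the difference for 8HQ was not called. AXIN2 fell by 0.64 with 8HQ_FAC against DMSO (SE 0.0331; adjusted p = 5.44e-11).

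NKD1, which encodes an inhibitor that binds Dishevelled, had another pattern. It held 34.0, 34.8 and 36.1 FPKM with DMSO, 35.9, 35.9 and 35.1 with 8HQ, 28.4, 28.8 and 27.5 with FAC, and 27.3, 27.9 and 27.6 with 8HQ_FAC. Both groups with FAC lay below both groups without it, and within each pair the groups overlapped. The log2 change with 8HQ_FAC was -0.33 (SE 0.0319; adjusted p = 1.02e-07) as deposited, 0.09 after median centring and 0.47 after removal of a trend with transcript length. The length used for NKD1, 17105 bases, was the longest of the set.

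TCF7 and LEF1 encode DNA-binding partners of beta-catenin. TCF7 held 3.66, 3.74 and 3.61 FPKM with DMSO, 3.33, 3.54 and 3.57 with 8HQ, 3.06, 3.04 and 2.78 with FAC, and 2.53, 2.59 and 2.63 with 8HQ_FAC. Its groups did not overlap and descended in that order. The TCF7 change of -0.38 with 8HQ_FAC (SE 0.0506; adjusted p = 3.84e-06) was positive under 3 scalings, at 0.02 to 0.07.

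LEF1 held 1.09, 1.31 and 0.985 FPKM with DMSO, 0.988, 1.28 and 0.921 with 8HQ, 0.605, 0.507 and 0.543 with FAC, and 0.711, 0.414 and 0.364 with 8HQ_FAC. The 2 groups without FAC overlapped each other and lay above the 2 with FAC, which also overlapped each other. The depth behind these values was low, with 68 to 99 recovered reads per library without FAC and 24 to 46 with it. LEF1 was at 44.0% of DMSO with 8HQ_FAC, a log2 change of FPKM + 1 of -0.51 (SE 0.0934; adjusted p = 0.000109), which after median centring was -0.10 and not called. Since LEF1 passed the minimum only through the groups where it is high, the minimum favoured this call; with no minimum the adjusted p was 0.000577. TCF7 and LEF1 are also expressed in T lymphocytes. The T cell gene CD3E was at 0.0349 to 0.185 FPKM in the 6 libraries without FAC and at 0 in the 6 with it, and its part in the TCF7 and LEF1 values was not tested.

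SP5 encodes a zinc-finger transcription factor that is a direct target of beta-catenin. It held 83.8, 90.3 and 85.1 FPKM with DMSO, 73.9, 79.4 and 77.8 with 8HQ, 78.7, 76.3 and 72.9 with FAC, and 14.2, 15.8 and 14.8 with 8HQ_FAC. The single agents overlapped each other just below DMSO, and the combination was far below all 3. SP5 went from 86.4 ± 3.44 to 14.9 ± 0.803 FPKM (SD, n = 3 each), or 17.3% of DMSO. It fell by 2.45 on the log2 scale (SE 0.0432; adjusted p = 1.56e-15), the 8th lowest change of all tested genes. Recovered reads for SP5 went from 4940 to 5087 per DMSO library to 649 to 749 per 8HQ_FAC library. These reads are not corrected for the lower depth of the 8HQ_FAC libraries.

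CTNNB1 encodes beta-catenin. It held 123, 121 and 122 FPKM with DMSO, 122, 119 and 124 with 8HQ, 123, 129 and 125 with FAC, and 96.2, 98.6 and 96.1 with 8HQ_FAC. The first 3 groups overlapped, and 8HQ_FAC lay below them. The log2 change was -0.33 with 8HQ_FAC against DMSO (SE 0.0269; adjusted p = 1.46e-08), and it was 0.09 after median centring and 0.08 after removal of the length trend. Transcript level says nothing of the amount or location of the protein.

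The scaling mattered because the median change of all tested genes was -0.23 as deposited, 0.00 after quantile normalization, 0.18 after median centring, -0.50 with FPKM sums made equal and 0.01 with the length trend removed. Genes called higher made up 32.7% of all calls as deposited and 49.8%, 63.3%, 15.7% and 50.8% under those 4 settings. SP5, DKK1, LGR5, RNF43, ZNRF3 and AXIN2 were called lower under each of them and in a voom fit on the recovered reads. The count of genes of the set called lower was 9, 6, 10 and 7, beside 41.1%, 31.0%, 73.6% and 39.4% of all tested genes. The count called higher was 0, 2, 0 and 2, beside 40.7%, 53.4%, 13.7% and 40.8% of all tested genes.

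**Figure D2:**
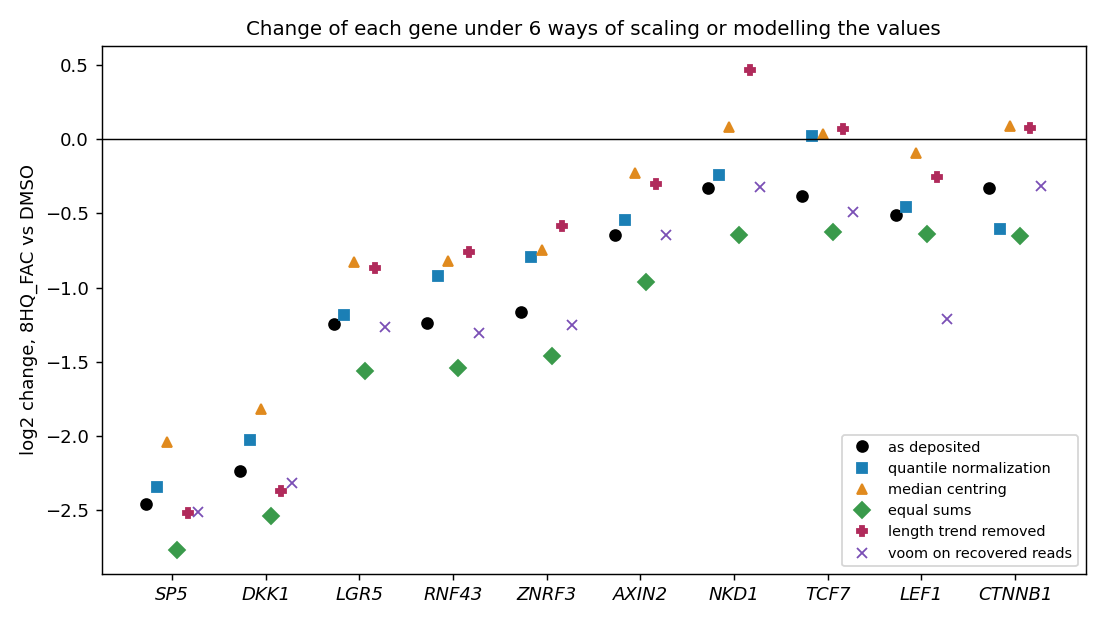
Log2 change with 8HQ_FAC against DMSO for each of the 10 genes under 6 ways of scaling or modelling the values. The points of SP5, DKK1, LGR5, RNF43, ZNRF3 and AXIN2 are below 0 throughout, LEF1 comes to -0.10 after median centring, and NKD1, TCF7 and CTNNB1 have points on both sides of 0.

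The single agents had smaller effects on the set. With 8HQ alone DKK1 fell to 75.4% of DMSO (41.0 ± 2.42 FPKM), a log2 change of -0.40 (SE 0.0422; adjusted p = 4.9e-05). SP5 was at 89.2% of DMSO with 8HQ, a change of -0.16 (SE 0.0432; adjusted p = 0.0431) that was called under 14 of 23 alternatives. It was not called, with adjusted p up to 0.158, without any 1 of the DMSO or 8HQ libraries or FAC replicate 2, with no filter, or without the trend in limma. These were the 2 genes called lower, where 2.41% of all tested genes were, and none of the set was called higher, where 2.49% were. For CTNNB1 the interval of the log2 difference between 8HQ and DMSO was -0.06 to 0.06, for ZNRF3 -0.07 to 0.08, and for LEF1 -0.25 to 0.15.

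With FAC alone 3 genes rose and 5 fell, or 4 with LEF1 set aside, beside 24.8% of all tested genes called higher and 29.2% called lower. AXIN2 rose by 0.26 (SE 0.0331; adjusted p = 1.04e-05), DKK1 by 0.23 (SE 0.0422; adjusted p = 0.000319) and RNF43 by 0.21 (SE 0.0366; adjusted p = 0.00025) on the log2 scale. LGR5 fell by 0.43 (SE 0.0403; adjusted p = 4.88e-07), to 73.6% of DMSO. NKD1 fell to 80.7%, TCF7 to 80.6%, SP5 to 88.0% and LEF1 to 49.0% of DMSO. The minimum favoured the call of LEF1, whose FAC libraries were all below 1 FPKM, and with no minimum its adjusted p was 0.00336. The directions of these 8 genes held under every scaling. ZNRF3 was not called, and CTNNB1, at a change of 0.04 (adjusted p = 0.185), was called higher after median centring (0.09) and after removal of the length trend (0.08). FAC and 8HQ were compared with the same DMSO libraries, so their values stand side by side here: DKK1 was at 118% of DMSO with FAC and 75.4% with 8HQ.

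**Figure D3:**
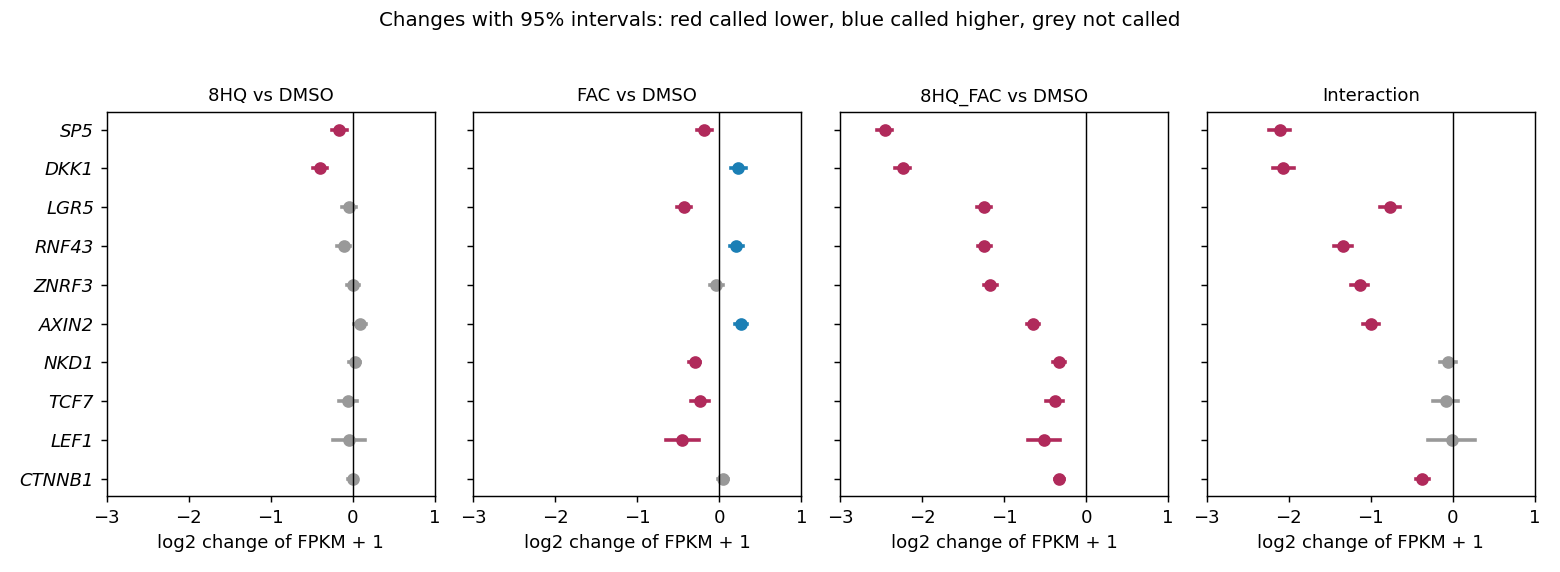
Log2 change of FPKM + 1 for each gene in the comparisons, with 95% intervals from limma on the values as deposited; red marks genes called lower, blue called higher and grey not called. The intervals for SP5 and DKK1 with 8HQ_FAC against DMSO lie wholly below -2. The changes of NKD1, TCF7 and CTNNB1 in that comparison turn positive under some other scalings.

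Each agent was then compared in the presence of the other. Adding 8HQ to FAC lowered 8 of the 10 genes, where 56.0% of all tested genes were called lower, and 4 of them by at least 2-fold, where 7.07% were. None was higher, where 26.8% of all tested genes were. DKK1 fell by 2.47 on the log2 scale (SE 0.0422; adjusted p = 9.83e-16) and SP5 by 2.27 (SE 0.0432; adjusted p = 2.67e-15), the 2nd and 5th lowest changes of all tested genes. RNF43 fell to 34.4%, ZNRF3 to 42.5%, AXIN2 to 52.2% and LGR5 to 55.9% of the level with FAC. NKD1 and LEF1 were not called as deposited, with intervals of -0.10 to 0.04 and -0.26 to 0.14. NKD1 was called higher after median centring (0.34; adjusted p = 1.6e-07) and without the length trend (0.71; adjusted p = 3.61e-11), and LEF1 after median centring (0.31; adjusted p = 0.00807). TCF7 at -0.14 was called as deposited (adjusted p = 0.0162), not called without FAC replicate 1 (-0.12) or FAC replicate 2 (-0.13), and called higher after quantile normalization (0.25), median centring (0.22) and length trend removal (0.27). Of all tested genes 39.6% were called higher after quantile normalization, 51.2% after median centring and 39.7% without the length trend. CTNNB1 at -0.37 came to 0.00 after median centring and without the length trend.

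Adding FAC to 8HQ lowered all 10 genes, or 9 of 9 with LEF1 set aside, where 57.6% of all tested genes were called lower, and 5 of them by at least 2-fold, where 10.7% were. SP5 came to 19.4% and DKK1 to 26.2% of the level with 8HQ. ZNRF3 came to 41.3%, LGR5 to 42.6%, RNF43 to 43.2% and AXIN2 to 59.1%. NKD1 (-0.36), TCF7 (-0.32) and CTNNB1 (-0.33) turned positive after median centring and without the length trend, to between 0.07 and 0.45, as did TCF7 after quantile normalization (0.10), and LEF1 (-0.47) was not called under the first 2 of these settings.

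The interaction asked whether adding FAC moved a gene differently when 8HQ was present. It is the change on adding FAC to 8HQ less the change on adding FAC to DMSO. By this test 7 genes were called lower, where 53.3% of all tested genes were, and none was called higher, where 23.4% were. SP5 had an interaction of -2.11 (SE 0.0611; adjusted p = 9.9e-13) and DKK1 of -2.07 (SE 0.0597; adjusted p = 9.9e-13). For RNF43, ZNRF3, AXIN2 and LGR5 it was -1.34, -1.13, -0.998 and -0.76. The 4 genes SP5, DKK1, RNF43 and ZNRF3 had an interaction below -1, as 7.43% of all tested genes did with a call. DKK1, RNF43 and AXIN2 were thus raised by FAC added to DMSO and lowered by FAC added to 8HQ. CTNNB1, at -0.37, came to 0.00 after median centring and 0.02 after removal of the length trend. NKD1 at -0.06 (adjusted p = 0.257), TCF7 at -0.08 (adjusted p = 0.297) and LEF1 at -0.01 (adjusted p = 0.931) were not called, and their intervals were -0.15 to 0.04, -0.24 to 0.07 and -0.30 to 0.27. After median centring all 3 were called higher, at 0.32, 0.29 and 0.36, where 46.4% of all tested genes were. The median interaction of all tested genes was 0.14 under that setting.

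The wider pathway was read from a list of 157 other genes in 12 role groups, of which 81 were tested. With 8HQ_FAC against DMSO 18 were called higher and 61 lower (22.2% and 75.3%, beside 27.5% and 56.7% of all tested genes), and their median log2 change was -0.71. These counts include 2 genes called higher, SFRP5 and APCDD1, and 3 called lower, CYP2E1, FRAT1 and TLE4, that were below 1 FPKM in every library of the lower group, so that the minimum favoured their calls; with no minimum all 5 were still called. The counts were 19 and 54 after quantile normalization, 28 and 46 after median centring, 9 and 65 with equal sums, and 25 and 50 without the length trend. Of all tested genes, 40.7% and 41.1%, 53.4% and 31.0%, 13.7% and 73.6%, and 40.8% and 39.4% were called higher and lower under those settings.

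Of 7 receptors and co-receptors tested, 6 were called lower and 1, PTK7, higher as deposited, 4 and 3 after median centring or without the length trend, and 7 and 0 with equal sums, where PTK7 was at -0.11. The Frizzled receptors FZD4 and FZD5 fell by 2.17 and 1.95, from 29.9 ± 1.18 to 5.85 ± 0.101 FPKM for FZD4 (SD, n = 3 each). LRP6, an essential co-receptor, fell by 1.34. The only other tested gene of the R-spondin axis, LGR4, a second R-spondin receptor, fell by 2.07.

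Of 18 genes of the destruction complex and of beta-catenin turnover, 17 were called lower and 1, CSNK1G2, higher as deposited, and 14 to 18 lower and 0 to 2 higher over the 4 other scalings, with CSNK1G2 at -0.13 with equal sums. APC and AXIN1, the scaffolds, had changes of -1.12 and -1.12, and the kinase GSK3B one of -1.25. Of 12 genes of the nuclear complex 9 were called lower under every scaling and 3 higher as deposited, or 1 to 3 over the other scalings. TCF7L2 was at -1.29 and the co-activator BCL9L at -1.48. Among Groucho-family genes TLE1, TLE3 and TLE4 fell by 1.07, 1.26 and 0.93 while AES (TLE5) rose by 0.83. CTNNBIP1, which keeps beta-catenin from TCF proteins, rose by 0.38. Genes that act for the pathway and genes that act against it were thus both among those called lower.

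Of 16 other target genes 5 were called higher and 11 lower as deposited, and 4 to 7 and 9 to 11 over the 4 other scalings. ID2, an inhibitor of helix-loop-helix transcription factors, rose by 2.27 (SE 0.0467), MSX1 by 0.93, JUN by 0.79 and L1CAM by 0.58. SOX9 fell by 2.07 (SE 0.0358) and FOXQ1 by 1.72. Of 6 perivenous liver targets 2 were called higher and 4 lower as deposited, and 1 to 2 and 3 to 5 under the other scalings. OAT rose by 0.88, and GLUL, the glutamine synthetase of perivenous hepatocytes, fell by 0.55. CYP2E1 was also called lower, at 1.05 to 3.38 FPKM in each library without FAC and 0 to 0.263 in each with FAC. CYP2E1 reached the minimum only through the libraries without FAC. Like CD3E, CD163, TYROBP and HLA-DRA above, it was lower in every library with FAC than in any without. The leukocyte list as a whole did not move this way, as LYZ and CD68 were highest with 8HQ_FAC. The part of leukocyte transcripts in the CYP2E1 values was not tested. All 5 planar polarity genes tested were called lower as deposited, DAAM1 by the most at -1.58, and 2 lower and 3 higher without the length trend. Of 5 secreted and surface inhibitors 3 were called higher, SFRP5 at 0.48, KREMEN2 at 0.42 and APCDD1 at 0.30, and KREMEN1 was called lower at -0.44 but stood at 0.09 without the length trend, beside the fall of DKK1; over the 4 other scalings 1 to 4 were called higher and 0 to 1 lower.

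**Figure D4:**
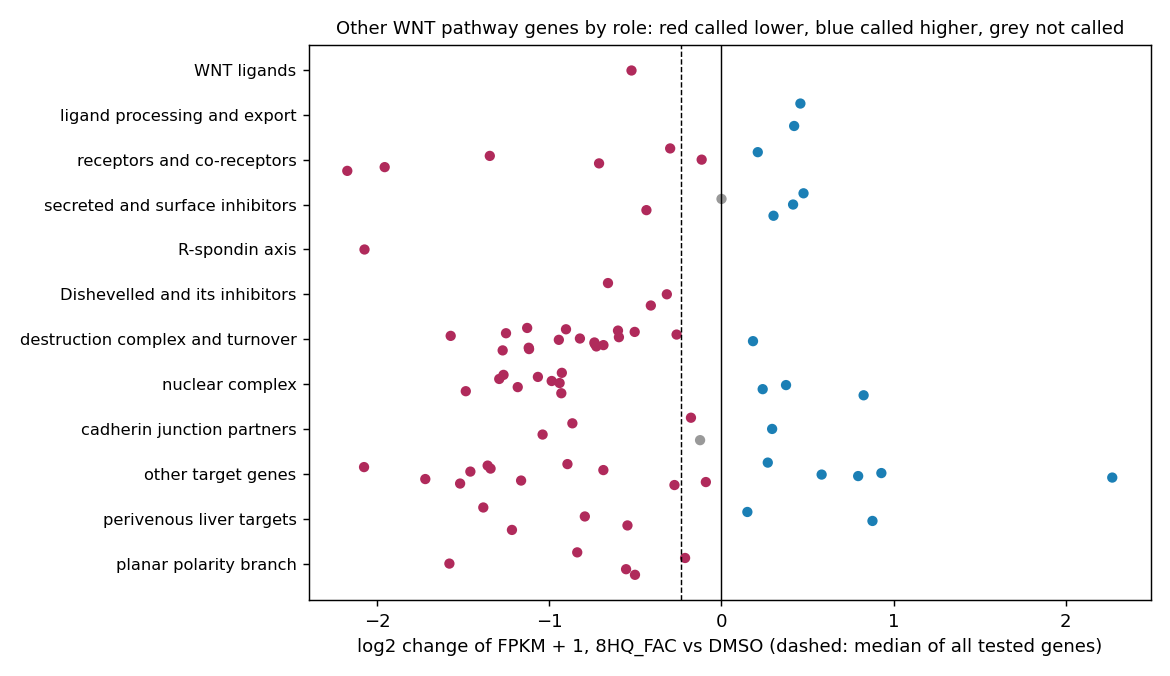
Log2 change of FPKM + 1 with 8HQ_FAC against DMSO for the 81 other pathway genes tested, by role; each point is a gene, and the dashed line is the median of all tested genes (-0.23). Most points lie left of 0 as deposited, with 61 called lower and 18 higher, and 46 and 28 after median centring.

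With 8HQ alone 3 of the 81 rose and 8 fell (3.70% and 9.88%, beside 2.49% and 2.41% of all tested genes). MYC rose by 0.26 and NOTUM by 0.11, FZD4 was called at 0.16 but not under 17 of 23 alternatives, and CLDN1 fell by 0.42, SOX4 by 0.31 and BMP4 by 0.26. With FAC alone 17 rose and 40 fell (21.0% and 49.4%, beside 24.8% and 29.2%). L1CAM rose by 0.57, APCDD1 by 0.41 and RNF146 by 0.33, and CYP2E1, JUN and BAMBI fell by 1.36, 0.93 and 0.74. APCDD1 was below 1 FPKM in every DMSO library and CYP2E1 in every FAC library, so the minimum favoured these calls, and with no minimum their adjusted p was 0.000476 and 0.00166. When 8HQ was added to FAC 14 were higher and 58 lower (17.3% and 71.6%, beside 26.8% and 56.0%), led by ID2 (2.49), JUN (1.73) and MSX1 (1.04) upward and LGR4 (-2.03), SOX9 (-1.91) and BMP4 (-1.75) downward. When FAC was added to 8HQ 18 were higher and 60 lower (22.2% and 74.1%, beside 26.8% and 57.6%), led by ID2 (2.22), JUN (0.98) and OAT (0.97) upward and FZD4 (-2.34), SOX9 (-1.88) and LGR4 (-1.85) downward. Median centring moved these last 2 pairs of counts to 28 and 44, and 27 and 50, and the shares of all tested genes to 51.2% and 30.6%, and 52.7% and 31.8%.

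Over the 12 libraries the genes whose log2 levels ran most like SP5, of 10822 compared, were ZMYND8, TGFBR2 and PBRM1, with Pearson coefficients of 0.999, 0.998 and 0.998. For AXIN2 they were PIP4K2B, SOGA1 and GTF3C1 (0.997, 0.997 and 0.996), and for CTNNB1 ZNF552, WDR33 and MTREX (0.992 each). The 12 points fall in 4 treatment groups and share their libraries, so these values describe likeness of pattern in these data.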

How the data were processed

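HepG2 RNA was sequenced in 12 libraries of 4 groups, assigned from the labels. The deposited table holds FPKM per gene, which the authors computed. The submitters' processing notes name Bowtie 0.12.2 and mouse builds; for the quantifier, the human build and the annotation, nothing is stated in the sources used. The 10 genes, the wider WNT list and the marker lists were chosen with earlier results of these data known.

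limma 3.58.1 in R 4.3.3 was fitted with a mean-variance trend to log2(FPKM + 1), with 1 mean per group over all 12 libraries, for the 10823 genes at 1 FPKM or more in at least 3 libraries. Because of the pseudocount of 1, a log2 change understates the ratio of low genes such as LEF1. P-values were two-sided and adjusted by Benjamini-Hochberg within each of 6 comparisons, at a threshold of 0.05; intervals are 95% and unadjusted. The genes named from the wider list are the 6 largest called rises and falls with 8HQ_FAC against DMSO and the 3 largest in each other comparison, among genes of at least 1 FPKM in the higher group; the role genes given besides them were chosen after their values were seen. Whole reads were recovered from the FPKM steps, with 99.9% of 17334 genes above 0 whole in all libraries within 0.05 of a read, up to a factor shared by all libraries; a voom fit to these reads was added after seeing the data and called 9058 genes with 8HQ_FAC against DMSO. Alternatives were 4 scalings, a pseudocount of 0.1, no filter, a filter at 5 FPKM, a fit without the trend, a fit to only the compared groups, a replicate block, and each library left out. The length trend used the longest GENCODE transcript of each gene, which need not be the length behind the deposited FPKM. Data were simulated with DMSO means in every group and a small share of genes changed in 8HQ_FAC, up and down alike. On these the fit recovered 94% of genes changed by 0.5 on the log2 scale. In the real comparison 9121 genes were called, so the 94% may not hold there. Promoter letters are from RefSeq (GRCh38.p14), matched by gene symbol.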

Additional observations from a re-analysis of the deposited data

Results flagged for a closer look

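For 7 genes of the set the effect of FAC in cells given 8HQ differed from its effect in cells without 8HQ, by the interaction term of limma, all of them lower. Of all tested genes 53.3% were called lower and 23.4% higher by that term. On the log2 scale this difference was -2.11 for SP5, -2.07 for DKK1, -1.34 for RNF43, -1.13 for ZNRF3, -0.998 for AXIN2, -0.76 for LGR5 and -0.37 for CTNNB1, the last of which came to 0.00 after median centring. The same difference among the genes named from the wider list was 2.44 for ID2, 1.91 for JUN, 0.97 for MSX1, -1.80 for LGR4, -1.71 for SOX9 and -1.65 for FZD4. ID2 fell by 0.22 and JUN by 0.93 when FAC was added to DMSO, and they rose by 2.22 and 0.98 when it was added to 8HQ. FZD4 fell by 0.68 and then by 2.34, and SOX9 by 0.17 and then by 1.88. LGR4 and MSX1 were not called with FAC alone (-0.05 and -0.11) and were at -1.85 and 0.87 when it was added to 8HQ.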

How the results depend on the processing

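Of 1358 alternative values for the 10 genes 1282 kept direction and call. The cause of the others was not tested, except that fewer genes or libraries enter some. As scaled by quantile normalization, log2 changes that turned were TCF7 at 0.025, 0.25, 0.10 and 0.33 (8HQ_FAC against DMSO, FAC and 8HQ, and the interaction), NKD1 at 0.052 (against FAC) and 0.015 (interaction), LEF1 at 0.065 (interaction), CTNNB1 at 0.00016 and ZNRF3 at -0.00018 (8HQ against DMSO), and NOTUM at -0.13 (8HQ_FAC against DMSO). With median centring, 8HQ_FAC against DMSO gave NKD1 0.086, TCF7 0.034 and CTNNB1 0.090, against FAC NKD1 0.34, TCF7 0.22 and LEF1 0.31, and against 8HQ NKD1 0.066, TCF7 0.099 and CTNNB1 0.096; the interaction gave NKD1 0.32, TCF7 0.29, LEF1 0.36 and CTNNB1 0.0036, and ZNRF3 was -0.0033 with 8HQ and 0.013 with FAC. With the length trend removed, the same 3 comparisons gave NKD1 0.47, TCF7 0.072 and CTNNB1 0.078, then NKD1 0.71, TCF7 0.27, LEF1 0.18 and CTNNB1 0.00036, then NKD1 0.45, TCF7 0.15 and CTNNB1 0.096; the interaction gave NKD1 0.70, TCF7 0.35, LEF1 0.24 and CTNNB1 0.018, and ZNRF3 was -0.012 with 8HQ and 0.0091 with FAC. With equal sums ZNRF3 was -0.00085 with 8HQ.

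With 8HQ against DMSO the count of genes of the set called lower was 1 with no filter or without the trend, 1 to 2 with a library left out, and 3 by voom and with the length trend removed, where RNF43 was also called (-0.11 and -0.12). Of the wider list 7 were called without the trend, 17 by voom and 7 to 11 with a library left out. Of all genes 531 were called, 934 by voom and 257 to 564 with a library left out (257 without DMSO replicate 1, 325 without DMSO replicate 2, and 301, 338 and 289 without 8HQ replicates 1, 2 and 3). A filter at 5 FPKM, which drops TCF7 and LEF1, left 3 lower with FAC. With 8HQ_FAC against DMSO the counts higher and lower were 2 and 6 after median centring, beside 53.4% and 31.0% of all tested genes. With the length trend removed 2 were higher, beside 40.8%. Against 8HQ the counts were 1 and 6 after median centring (beside 52.7% and 31.8%) and 3 and 6 with length removal (40.7% and 39.6%). Against FAC the count higher was 1, 3 and 2 under quantile normalization, median centring and length removal, beside 39.6%, 51.2% and 39.7%. The interaction gave the same counts higher, beside 34.6%, 46.4% and 34.9%.

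With a library left out, the range with 8HQ against DMSO was -0.12 to 0.015 for LEF1, -0.015 to 0.012 for ZNRF3 and -0.015 to 0.016 for CTNNB1, and for LEF1 it was -0.16 to 0.0037 against FAC and -0.11 to 0.060 in the interaction. Same-numbered libraries did not deviate together (18 pairs, correlations of -0.0756 to 0.0477), so the numbers were not treated as pairs. The correlations cannot show whether same-numbered libraries were made together. A replicate block left the counts of the set unchanged, at 10 lower with 8HQ_FAC, and called 9107 of all genes against 9121. The interaction was not run on only the groups compared. Low read counts limit LEF1 most.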

Other observations

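NOTUM, which encodes a secreted enzyme that inactivates WNT ligands and is itself a beta-catenin target, was chosen here after its values were seen. It held 273, 279 and 275 FPKM with DMSO, 293, 298 and 302 with 8HQ, 240, 231 and 225 with FAC, and 370.2, 370.1 and 368 with 8HQ_FAC. No groups overlapped, with 8HQ_FAC highest and FAC lowest, an order unlike that of DKK1 and RNF43. The log2 change with 8HQ_FAC against DMSO was 0.42 (SE 0.0249), and it was -0.13 after quantile normalization. A separate list, the 140 other genes that the pathway column of the deposited table assigns to WNT signalling, had 78 tested genes, of which 16 were called higher and 55 lower with 8HQ_FAC against DMSO, beside 27.5% and 56.7% of all tested genes. After median centring the counts were 30 and 40, beside 53.4% and 31.0%, and with equal sums 9 and 62, beside 13.7% and 73.6%. Of these 78 and of the 81 tested genes of the wider list, 32 are shared.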
